A study of Mus musculus with 6 samples.

Results

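Cytokine mRNA decay and stability factors are RNA-binding proteins that set how long the mRNAs of inflammatory cytokines last. The 9 genes described here, out of 54532 listed per library, were chosen by name: Zfp36, Zfp36l1, Zfp36l2, Zc3h12a, Zc3h12c, Rc3h1, Rc3h2, Elavl1 and Arid5a, each matched by its symbol in the GENCODE M21 annotation of GRCm38. They were measured by RNA-seq in iBMDMs, mouse bone marrow-derived macrophages immortalized with retroviruses that encode v-raf and v-myc. Control iBMDMs carried a control shRNA and PGAM5 KD iBMDMs an shRNA against Pgam5, a mitochondrial phosphatase, both introduced with lentivirus. Both groups, with 3 libraries each, received LPS (100 ng/ml) for 4 hours, so no library shows the levels before LPS. One shRNA line was compared with another, so effects of the line, of the shRNA and of PGAM5 cannot be told apart. The labels do not say whether the replicates were separate cultures, and p-values then measure only the spread between these libraries.

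Tristetraprolin, the product of Zfp36, binds AU-rich elements in the 3′ UTR of target mRNAs and recruits the CCR4-NOT complex, which shortens the poly(A) tail and so starts decay. Zfp36l1 and Zfp36l2 encode its paralogs with the same type of paired CCCH zinc fingers. Zc3h12a and Zc3h12c encode Regnase-1 and Regnase-3, endoribonucleases that cleave mRNAs such as that of Il6, and Rc3h1 and Rc3h2 encode Roquin-1 and Roquin-2, which bind stem-loops in 3′ UTRs and recruit the deadenylation machinery. On the opposite side, HuR, encoded by Elavl1, and Arid5a can protect such mRNAs from decay. In macrophages these factors act on transcripts that LPS induces, and several of them are themselves LPS-induced or carry the elements that they bind.

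AU-rich heptamers were present in the 3′ UTRs of 7 of the 9 members, in some no more than in other 3′ UTRs of like length. The heptamer TATTTAT, the core to which tristetraprolin binds, occurred 3 times in the 774 bases of the Zfp36 3′ UTR, and only 0.892% of the 1121 3′ UTRs within 20% of that length held as many. There were 3 heptamers in each of the 3′ UTRs of Zfp36l1 (1835 bases), Zfp36l2 (1822 bases) and Rc3h2 (5160 bases), and 2 in each of those of Zc3h12c (4062 bases) and Rc3h1 (7181 bases). As many were held by 3.40%, 3.32% and 14.8% of 3′ UTRs of like length for Zfp36l1, Zfp36l2 and Rc3h2, and by 27.2% and 46.7% for Zc3h12c and Rc3h1. The Elavl1 3′ UTR (4218 bases) held 8, a number reached by 0.306% of 653 3′ UTRs of like length, whereas those of Zc3h12a (856 bases) and Arid5a (2788 bases) held 0. For comparison, the target Tnf held 8 in 764 bases and the target Il6 held 1 in 427 bases. The 30-base window with the most heptamers is shown for the tristetraprolin family, for the other called members with heptamers, for Elavl1, which held the most, and for both targets, from the principal coding transcript in GENCODE M21, 5′ to 3′ in the sense direction, with heptamers in capitals.
Zfp36, chr7:28376958-28376987, minus strand: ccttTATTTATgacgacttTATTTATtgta
Zfp36l1, chr12:80108422-80108451, minus strand: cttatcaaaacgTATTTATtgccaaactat
Zfp36l2, chr17:84184914-84184943, minus strand: aactatttaactTATTTATtatcttgtgaa
Zc3h12c, chr9:52114862-52114891, minus strand: tgctataatcatTATTTATaggaacaaaga
Rc3h1, chr1:160970042-160970071, plus strand: tactttactcatTATTTATtgagatgagga
Elavl1, chr8:4285777-4285806, minus strand: tTATTTATTTATTTATTTATtttTATTTAT
Tnf, chr17:35199678-35199707, minus strand: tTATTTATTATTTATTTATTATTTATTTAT
Il6, chr5:30019727-30019756, plus strand: atttatgattgaTATTTATtatttttatga
A match to these letters is a description and does not show that a protein was bound.

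Values are FPKM, fragments per kilobase of exon relative to the depth of a library. The recovered depth was between 18163463 and 24388917 fragments, and limma tested log2(FPKM + 1) for the 10540 genes with a mean of at least 1 FPKM, a scale on which the fold of low genes is understated. Pgam5 was lower in PGAM5 KD libraries, at 4.87 ± 0.770 FPKM against 14.5 ± 2.27 FPKM (SD, n = 3), a log2 fold change of -1.40 (SE 0.13, adjusted p = 0.000358). Of 8 macrophage markers, 7 were at 1 FPKM or more and Mertk was listed at 0. Their sum was between 2802 and 2894 FPKM in control and between 2526 and 2544 FPKM in PGAM5 KD libraries, and its part in the results was not tested. None of the 7 neutrophil, 6 fibroblast or 6 lymphocyte markers reached 1 FPKM. The smallest p that the exact permutation test can give with 3 libraries against 3 is 0.1, so calls rest on limma's adjusted p under 0.05.

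Of the 9 genes, 8 passed the filter on low values and Arid5a did not. Zfp36 and Zc3h12a were higher in PGAM5 KD iBMDMs, 2 of the 8 tested, where 16.8% of all tested genes were higher. Zfp36l2, Zc3h12c and Rc3h1 were lower, 3 of the 8, where 14.9% of all tested genes were lower. The other 3, Zfp36l1, Rc3h2 and Elavl1, were not called. The groups did not overlap for the 5 called genes, while 47.1% of all tested genes had groups that did not overlap. No tested member passed an absolute log2 fold change of 1, as 1.32% of tested genes did with the adjusted p under 0.05. The median log2 fold change was -0.11 over the 8 tested members and 0.01 over all tested genes, and the median absolute log2 fold change was 0.21 and 0.15. Across all tested genes 1771 were higher and 1575 lower, a split that became 1088 higher and 2282 lower when libraries were scaled to TPM.

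**Figure D1:**
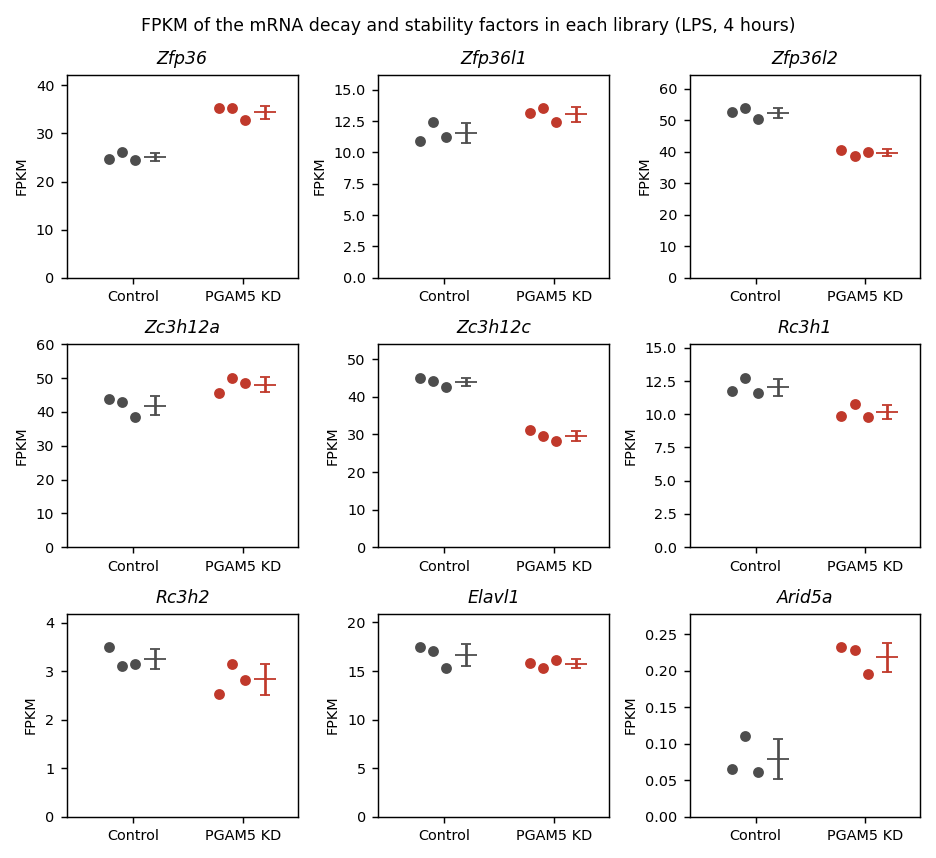
FPKM of the 9 genes in each library, with one dot per library (grey, control; red, PGAM5 KD) and the mean ± SD of 3 libraries beside the dots; each vertical axis starts at 0 and has its own scale. All PGAM5 KD dots lie above the control dots for Zfp36, Zc3h12a and Arid5a and below them for Zfp36l2, Zc3h12c and Rc3h1, while the groups overlap for Zfp36l1, Rc3h2 and Elavl1.

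Within the tristetraprolin family, Zfp36 rose and Zfp36l2 fell. Zfp36 (ENSMUSG00000044786, chr7:28376784-28380253, minus strand), the founding member, was at 24.7, 26.1 and 24.6 FPKM in control replicates 1 to 3 and at 35.2, 35.2 and 32.8 FPKM in PGAM5 KD replicates 1 to 3. The lowest PGAM5 KD library thus lay above the highest control library. The means were 25.1 ± 0.830 and 34.4 ± 1.41 FPKM (SD, n = 3), 36.9% higher in PGAM5 KD iBMDMs, with a log2 fold change of 0.44 (SE 0.05, 95% confidence interval 0.33 to 0.54, limma adjusted p = 0.000632). Zfp36 was called in 17 of 17 alternative settings, with log2 fold changes between 0.37 and 0.47. In bulk RNA, fewer cells that express a gene and less of its RNA per cell cannot be told apart, for this and every other gene described.

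Zfp36l2 (ENSMUSG00000045817, chr17:84183931-84187947, minus strand) was the most abundant member in control cells. It was at 52.7, 53.7 and 50.5 FPKM in control libraries and 40.6, 38.5 and 39.9 FPKM in PGAM5 KD libraries, so that every PGAM5 KD library was below every control library. Its mean fell by 24.2%, from 52.3 ± 1.66 to 39.6 ± 1.04 FPKM (SD, n = 3), a log2 fold change of -0.39 (SE 0.04, 95% confidence interval -0.48 to -0.30, limma adjusted p = 0.000526). The call held in 17 of 17 alternative settings, from -0.47 to -0.37.

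Zfp36l1 (ENSMUSG00000021127, chr12:80107754-80113013, minus strand) was the least abundant of the family. Its values of 10.9, 12.4 and 11.3 FPKM in control and 13.2, 13.5 and 12.4 FPKM in PGAM5 KD libraries overlapped, because control replicate 2 was slightly above PGAM5 KD replicate 3. The log2 fold change of 0.16 (SE 0.06) did not pass the test (limma adjusted p = 0.0841), though its unadjusted 95% confidence interval was 0.018 to 0.31. Without control replicate 2 the log2 fold change was 0.21 and the adjusted p was 0.0440. Of its 2990 exon bases, 1672 (55.9%) are shared with Gm26669, a lincRNA on the opposite strand listed with at most 5 fragments in any library, and whether the libraries kept strand is not stated. A processed pseudogene, Zfp36l1-ps, is 94.7% identical over 903 bases and had at most 4 fragments. Fragments of Zfp36l1 that the counting gave to neither gene, or to the wrong one, cannot be traced in FPKM.

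Zfp36 and Zfp36l2 changed in opposite directions, and Zfp36 took a larger part of the family in every PGAM5 KD library. Zfp36 made up 28.0%, 28.3% and 28.5% of the summed FPKM of the 3 family members in control libraries and 39.6%, 40.4% and 38.5% in PGAM5 KD libraries. The mean share went from 28.3% ± 0.234 to 39.5% ± 0.917 (SD, n = 3), a difference of 11.2 percentage points (exact two-sided permutation p = 0.1). Zfp36l2 went from 58.8% to 45.5% and Zfp36l1 from 13.0% to 15.0% (exact permutation p = 0.1 for each), shares that were examined after the values were seen. The sum of the 3 was 89.0 ± 3.02 FPKM in control and 87.1 ± 1.96 FPKM in PGAM5 KD libraries (SD, n = 3, exact permutation p = 0.5). The difference of the Zfp36 share was 11.9 percentage points when FPKM was set to the length of the principal coding transcript instead of all annotated exons.

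**Figure D2:**
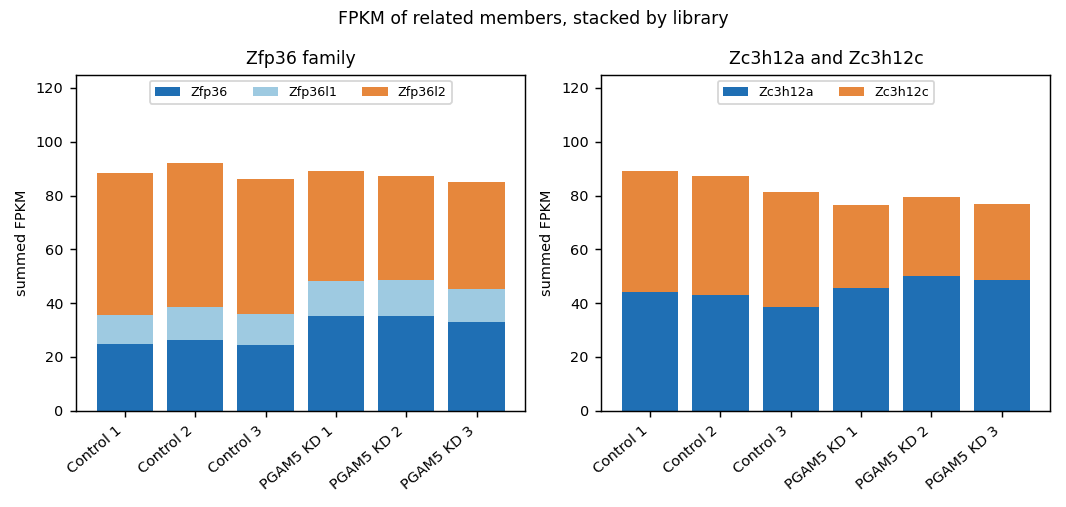
Stacked FPKM of the tristetraprolin family (left) and of Zc3h12a with Zc3h12c (right), one bar per library from 0, without error bars because each bar is a single library. The left bars reach at most 92.3 FPKM and their totals, in FPKM not scaled to TPM, overlap between the groups. The share of Zfp36 is larger, and that of Zfp36l2 smaller, in the 3 PGAM5 KD bars.

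Of the Regnases, Zc3h12c fell and Zc3h12a was slightly higher. Zc3h12c (ENSMUSG00000035164, chr9:52111344-52168572, minus strand), which encodes Regnase-3, showed the largest absolute log2 fold change of the 8 tested members. Its FPKM was 45.0, 44.2 and 42.7 in control and 31.1, 29.5 and 28.2 in PGAM5 KD libraries, and the groups were well apart. The mean fell by 32.7%, from 44.0 ± 1.17 to 29.6 ± 1.42 FPKM (SD, n = 3), with a log2 fold change of -0.56 (SE 0.05, 95% confidence interval -0.66 to -0.45, limma adjusted p = 0.000224). It was called in 17 of 17 alternative settings, with log2 fold changes from -0.64 to -0.52.

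Zc3h12a (ENSMUSG00000042677, chr4:125118423-125127840, minus strand), which encodes Regnase-1, was at 44.0, 43.0 and 38.6 FPKM in control and 45.6, 50.1 and 48.6 FPKM in PGAM5 KD libraries. The groups were apart by the narrow step from control replicate 1 to PGAM5 KD replicate 1. The means of 41.9 ± 2.85 and 48.1 ± 2.29 FPKM (SD, n = 3) differed by 14.8%, a log2 fold change of 0.20 (SE 0.06, 95% confidence interval 0.056 to 0.34, limma adjusted p = 0.0437). This call held in 8 of 17 alternative settings. The adjusted p was 0.0740 without control replicate 2, 0.101 without control replicate 3, 0.127 without PGAM5 KD replicate 2 and 0.114 without PGAM5 KD replicate 3. Scaling to TPM gave a log2 fold change of 0.12 and an adjusted p of 0.153, and quantile normalization gave 0.14 and 0.123, so the direction held and the call did not.

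As a share of the summed FPKM of both genes, Zc3h12a went from 48.7% ± 1.09 to 61.9% ± 2.09 (SD, n = 3, exact permutation p = 0.1), a quantity that was also examined after the values were seen. Their sum was 85.8 ± 4.00 FPKM in control and 77.7 ± 1.65 FPKM in PGAM5 KD libraries (exact permutation p = 0.1). Zc3h12d, which encodes another CCCH ribonuclease of the same family, was at 2.22, 2.34 and 2.80 FPKM in control and 1.53, 1.02 and 0.992 FPKM in PGAM5 KD libraries, a log2 fold change of -0.67 (SE 0.13, limma adjusted p = 0.00968) that was -1.08 with voom on the recovered fragments. Zc3h12b, the remaining relative, did not reach the filter, with means of 0.0538 and 0.0195 FPKM.

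Of the Roquins, Rc3h1 was modestly lower and Rc3h2 was not called. Rc3h1 (ENSMUSG00000040423, chr1:160906418-160974978, plus strand) was at 11.7, 12.7 and 11.6 FPKM in control and 9.89, 10.7 and 9.83 FPKM in PGAM5 KD libraries, without overlap. Its mean fell by 15.5%, from 12.02 ± 0.625 to 10.2 ± 0.506 FPKM (SD, n = 3), a log2 fold change of -0.22 (SE 0.06, 95% confidence interval -0.36 to -0.087, limma adjusted p = 0.0252). The call held in 12 of 17 alternative settings. The adjusted p was 0.0524 without control replicate 1, 0.0741 without control replicate 2, 0.0662 without PGAM5 KD replicate 1, 0.0799 without PGAM5 KD replicate 3 and 0.0507 with no filter on low values.

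Rc3h2 (ENSMUSG00000075376, chr2:37370069-37422903, minus strand) was at 3.49, 3.11 and 3.14 FPKM in control and 2.53, 3.16 and 2.82 FPKM in PGAM5 KD libraries. PGAM5 KD replicate 2 lay within the control range. The log2 fold change was -0.15 (SE 0.09, 95% confidence interval -0.36 to 0.060, limma adjusted p = 0.243), and voom on the recovered fragments gave -0.21 and an adjusted p of 0.0421. Rc3h1 made up 78.7% ± 1.63 of the summed Roquin FPKM in control and 78.2% ± 1.26 in PGAM5 KD libraries (SD, n = 3, exact permutation p = 0.7). That difference of -0.480 percentage points turned to 0.345 without control replicate 2. The sum of both went from 15.3 to 13.0 FPKM (exact permutation p = 0.1). Set to the length of the principal coding transcript, the level of Rc3h2 in control libraries was 7.24 in place of 3.25, and the Rc3h1 share was 63.0% ± 2.27 in control and 62.3% ± 1.74 in PGAM5 KD libraries (SD, n = 3).

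Of the stabilizing factors, Elavl1 was not called and Arid5a lay below the filter on low values. Elavl1 (ENSMUSG00000040028, chr8:4285382-4325413, minus strand) was at 17.4, 17.1 and 15.3 FPKM in control and 15.9, 15.3 and 16.2 FPKM in PGAM5 KD libraries. The PGAM5 KD libraries lay almost wholly within the control range. The log2 fold change was -0.070 (SE 0.06, 95% confidence interval -0.20 to 0.065, limma adjusted p = 0.393), and it was called in 0 of 17 alternative settings.

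Arid5a (ENSMUSG00000037447, chr1:36307733-36324029, plus strand), which encodes an AT-rich interaction domain protein that binds Il6 mRNA, was barely detected. It was at 0.066, 0.111 and 0.061 FPKM in control and 0.232, 0.228 and 0.196 FPKM in PGAM5 KD libraries, from 15, 28 and 15 fragments and 64, 52 and 60 fragments. All 3 PGAM5 KD libraries were above all 3 control libraries. Pooled over libraries, 58 against 176 fragments gave a ratio of rates of 2.72 (exact 95% interval 2.01 to 3.73, counting error only). With no filter on low values limma gave a log2 fold change of 0.18 and an adjusted p of 0.0326, on a scale where the added 1 flattens such low values. voom on recovered fragments for genes with at least 10 fragments, chosen after seeing the data, gave 1.46 (SE 0.43) and an adjusted p of 0.0114. In PGAM5 KD libraries its mean was 0.219 ± 0.0198 FPKM (SD, n = 3), the lowest of the 9 genes.

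**Figure D3:**
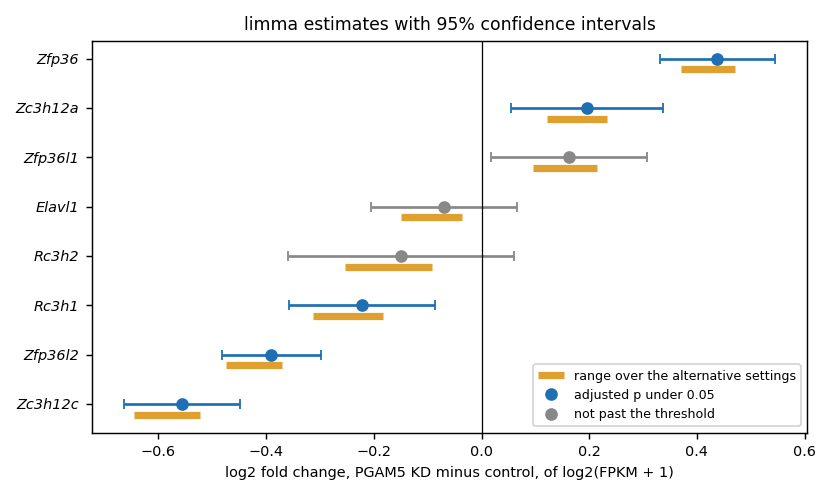
Log2 fold change of log2(FPKM + 1), PGAM5 KD minus control, for the 8 tested members, with unadjusted 95% confidence intervals from limma (blue, adjusted p under 0.05; grey, not past it) and, in orange, the range over the alternative settings. The intervals of Zfp36 (0.33 to 0.54), Zfp36l2 (-0.48 to -0.30) and Zc3h12c (-0.66 to -0.45) lie farther from 0 than that of Zc3h12a, which begins at 0.056, and those of Rc3h2 and Elavl1 include 0.

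The order of levels differed between the groups. In control libraries Zfp36l2 came first, followed by Zc3h12c and Zc3h12a, whose libraries overlapped, and then by Zfp36 and Elavl1. Rc3h1 and Zfp36l1 followed with overlapping libraries, and Rc3h2 and Arid5a came last. In PGAM5 KD libraries the order was Zc3h12a, Zfp36l2, Zfp36, Zc3h12c, Elavl1, Zfp36l1, Rc3h1, Rc3h2 and Arid5a, and no neighbours overlapped. Set to the length of the principal coding transcript, Zfp36 passed Zfp36l2 in PGAM5 KD libraries, at 42.8 ± 1.75 against 39.6 ± 1.04 (SD, n = 3), so the order of this pair depends on the length used. On the same scale Elavl1 was at 29.98 ± 2.03 in control in place of 16.6 and at 28.4 ± 0.813 in PGAM5 KD libraries, where its libraries overlapped those of Zc3h12c at 29.9 ± 1.44 (SD, n = 3). In control libraries it overlapped Zfp36 at 31.3 ± 1.03.

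Promoters of 8 of the 9 members were searched, all but Zfp36l2. In the 300 bases around a RefSeq start site (GRCm38.p6, 250 before and 50 after, both strands searched), Zfp36 held an SRF CArG box from position -58, present in 1.63% of 32851 promoters, and a GAS element (TTCNNNGAA) from -17, present in 8.30%. Zfp36l1 and Rc3h1 each held an AP-1 site (TGANTCA), at -129 and -133, present in 7.81% of promoters. A CRE half-site (TGACG), present in 20.8%, lay at 5 in Zc3h12a and at -133 in 1 of the 2 start sites searched for Zc3h12c, and the other start site of Zc3h12c held none of the motifs. The ISRE core (GAAA, any 2 bases, GAAA) and the NF-kappa B motif matched in none of the member promoters searched, which says only that these letters are not in these windows.

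Decay downstream of these factors is carried out by deadenylases, decapping enzymes and the exosome, whose lists can be read against 16.8% of all tested genes higher and 14.9% lower. Of 18 deadenylation genes tested, 4 were lower, 1 was higher and 13 were not called, and their log2 fold changes had a median of -0.01. Pan2, the catalytic subunit of the PAN2-PAN3 deadenylase, was at 4.50 ± 0.161 FPKM in control and 2.89 ± 0.0677 FPKM in PGAM5 KD libraries (SD, n = 3), a log2 fold change of -0.50 (limma adjusted p = 0.00160). Cnot1, the scaffold of CCR4-NOT to which tristetraprolin binds, fell by 0.29 on the log2 scale, from 23.9 to 19.3 FPKM (limma adjusted p = 0.00359). Both calls held in each alternative that tested the gene. Pan3 (-0.28), the deadenylase Cnot6 (-0.16) and Btg2 (0.31), which recruits deadenylases, passed less firmly. Leaving out control replicate 1 or 3 or PGAM5 KD replicate 2 or 3 took each of them past an adjusted p of 0.05, up to 0.0721 for Pan3, 0.105 for Cnot6 and 0.0648 for Btg2, and Cnot6 also lost its call without control replicate 2 (adjusted p = 0.0955).

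Among 18 genes of decapping and 5′-to-3′ decay, 1 was lower, 1 was higher and 16 were not called, with a median of 0.02 on the log2 scale. Dcp1a, an activator of the decapping enzyme, went from 10.3 ± 0.283 to 8.14 ± 0.242 FPKM (SD, n = 3), a log2 fold change of -0.30 (limma adjusted p = 0.00410). Lsm14a, a P-body protein, had a log2 fold change of 0.14 (limma adjusted p = 0.0426), a call that was lost when any 1 of the 6 libraries was left out (adjusted p 0.0592 to 0.114) and with TPM, at 0.062 (adjusted p = 0.356). Of 16 exosome and Ski complex genes, 15 were tested, with a median log2 fold change of 0.06, and Exosc6 was listed at 0. Wdr61, a Ski complex subunit, was the only gene called (log2 fold change 0.20, limma adjusted p = 0.0408), and its call was lost without control replicate 1 or 3 or PGAM5 KD replicate 2 or 3 (adjusted p 0.110 to 0.120) and with TPM, at 0.13 (adjusted p = 0.139).

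Among other proteins that bind AU-rich elements or 3′ UTRs, the genes that were called were lower. Of 20 listed, 15 were tested, 7 were lower and 8 were not called, where 14.9% of all tested genes were lower, and the median was -0.14 on the log2 scale. Cpeb4, which binds cytoplasmic polyadenylation elements, fell by 0.79 on the log2 scale, from 9.26 ± 0.676 to 4.92 ± 0.459 FPKM (SD, n = 3, limma adjusted p = 0.000529). The calls of Cpeb4 and Zc3h12d held in each alternative that tested the gene. Pum2 (-0.16) and Larp4b (-0.22) were called, but both lost the call without control replicate 2 or PGAM5 KD replicate 2 or 3. Pum2 also lost it without control replicate 3 and Larp4b without control replicate 1, with adjusted p up to 0.0996 and 0.0594. The paralogs Zfp36l3, Elavl2, Elavl3 and Elavl4 did not reach the filter, at means of at most 0.195 FPKM.

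Kinases, phosphatases, adaptors and proteases known to act on the member proteins were listed as well. Of 19, 16 were tested, 4 were higher, 2 were lower and 10 were not called, with a median difference of 0.02 on the log2 scale, and the 37.5% called lay near the 31.7% of all tested genes. Map2k3, a kinase that activates p38 upstream of the phosphorylation of tristetraprolin, went from 82.7 ± 0.475 to 68.7 ± 0.726 FPKM (SD, n = 3), a log2 fold change of -0.26 (limma adjusted p = 0.000712). Ywhah, a phosphoserine-binding adaptor, rose from 86.0 to 100.6 FPKM (log2 fold change 0.22, limma adjusted p = 0.00346). Its relatives Ywhaq (0.18) and Ywhag (0.13, named after its value was seen) and Ppp2ca (0.14), a catalytic subunit of the phosphatase PP2A, were the other 3 higher genes. Ywhaq lost its call without control replicate 2 or 3 or PGAM5 KD replicate 3 (adjusted p 0.0586 to 0.0607), and Ppp2ca without control replicate 3 or PGAM5 KD replicate 3 (0.0562 and 0.0544). Scaling to TPM gave 0.10 for Ywhaq (adjusted p = 0.106) and 0.067 for Ppp2ca (adjusted p = 0.191), quantile normalization gave adjusted p of 0.0517 and 0.0533, and the replicate block gave 0.0504 for Ppp2ca. Malt1, the paracaspase that cleaves Regnase-1 and the Roquins, had a log2 fold change of -0.28 (limma adjusted p = 0.0232), lost without control replicate 2 or 3 or PGAM5 KD replicate 3 (0.0525 to 0.0734).

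Known target mRNAs of the members were mostly higher. Of 20 listed, 14 were tested, 12 were higher, 1 was lower and 1 was not called, where 16.8% of all tested genes were higher and 14.9% lower. Their median was 0.96 on the log2 scale, against 0.01 over all tested genes. This list was written with results of these libraries known, so it is not independent evidence of a direction. On the log2(FPKM + 1) scale the 5 with the largest change were Il6 (2.52), Il1a (2.21), Il1b (2.14), Ptgs2 (1.63) and Cxcl2 (1.13). That scale compresses low values, and voom on the recovered fragments gave 4.01 for Il6 and 3.20 for Il1a. In control libraries Il6 rested on 15, 34 and 17 fragments and Il1a on 21, 42 and 28. The control means of both, 0.464 and 0.789 FPKM, were below 1 FPKM, so they passed the filter through their PGAM5 KD libraries. In FPKM, Il6 went from 0.464 ± 0.199 to 7.38 ± 0.618, a ratio of 15.9, and Cxcl2 from 151 ± 5.05 to 332 ± 10.6 (SD, n = 3), a ratio of 2.20, while Lif, named after its value was seen, had a ratio of 2.25. Tnf, the classic tristetraprolin target, with the 8 heptamers noted above, was at 325.5, 330.9 and 300.8 FPKM in control and 357.7, 362.0 and 346.1 FPKM in PGAM5 KD libraries. Its groups were apart, with a log2 fold change of 0.16 (SE 0.04, limma adjusted p = 0.0298). That call was lost without control replicate 1 or 3 or any 1 of the PGAM5 KD replicates (adjusted p 0.0502 to 0.0923), and the log2 fold change was 0.08 after scaling to TPM and 0.0036 after quantile normalization. Nfkbid, the 1 lower target (log2 fold change -0.37, limma adjusted p = 0.00459), and Il10, the 1 not called (0.09, limma adjusted p = 0.673), were named after their values were seen. RNA levels at 1 time do not separate decay from synthesis. The paper blocked transcription with actinomycin D and reported similar decay rates of Tnf and Il6 mRNA in control and knockdown iBMDMs. Its qPCR found both mRNAs less induced by LPS in PGAM5 KD iBMDMs, the reverse of the direction in these libraries.

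**Figure D4:**
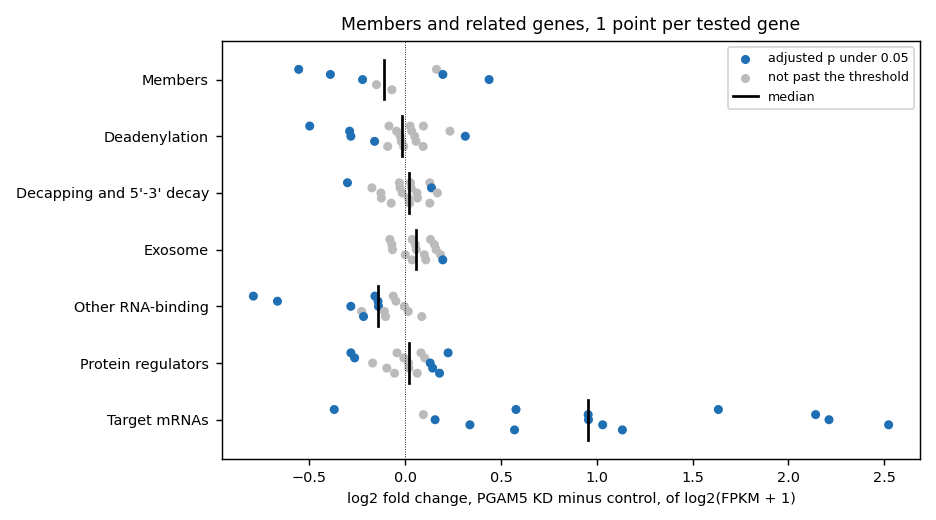
Log2 fold change of log2(FPKM + 1), PGAM5 KD minus control, with one point per tested gene for the members and the 6 related lists (blue, adjusted p under 0.05 from limma; grey, not past it) and a black bar at each median. The medians of the members (-0.11) and of the 5 lists of decay machinery and regulators lie within 0.15 of 0, and that of the target mRNAs is 0.96.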

How the data were processed

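The 6 RNA-seq libraries of LPS-treated iBMDMs, 3 control and 3 PGAM5 KD, were grouped by their labels. The authors deposited FPKM per Ensembl gene, 1 table per library. The submitters' processing notes name HISAT2 2.0.5, featureCounts 1.5.0-p3 and mm10, without their roles. The annotation release and the strand setting are not given in the sources used here. Of 54532 genes, 54495 were in GENCODE M21 and 37 were not. FPKM multiplied by exon length gave whole fragments within 0.01 for 96.8% to 97.1% of those below 1000 fragments, from which each depth was taken. The sum of FPKM ranged from 304393 to 304889 in control and was higher, from 317936 to 324298, in PGAM5 KD libraries, which TPM sets equal. The spread between replicates exceeded counting noise (chi-square per degree of freedom 4.95 to 8.49).

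Genes averaging at least 1 FPKM over the 6 libraries, 10540 in all, entered a limma 3.58.1 fit of log2(FPKM + 1) in R 4.3.3 (eBayes with trend). Two-sided p-values were adjusted by Benjamini and Hochberg's method, and calls were made at an adjusted p under 0.05. Shares of summed FPKM were compared by exact two-sided permutation tests. Levels between genes were compared per exon length. Heptamers were counted in 3′ UTRs of GENCODE M21 transcripts and motifs in RefSeq promoters. Genes at least 85% identical to a member over at least 300 bases were found with blastn 2.17.0. Alternatives were a pseudocount of 0.1, no filter, a mean FPKM of at least 5, TPM, quantile normalization, centring on the library median, no trend, array weights, voom, a replicate block and leaving out each library. voom without the FPKM filter and the length of the principal coding transcript were added after seeing the data.

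The members, lists and tests were chosen with earlier results of these data known. The text names all 9 members, Pgam5, up to 5 called genes per list with the largest absolute log2 fold change, Tnf, Il6, and genes that overlap or resemble a member. One gene that this rule names is not reported here.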

Additional observations from a re-analysis of the deposited data

How the results depend on the processing

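The tested members that changed did so by less than 2-fold, and Zfp36, Zfp36l2 and Zc3h12c kept direction and call in all 17 alternatives run for each. Zc3h12a, Rc3h1, Zfp36l1 and Rc3h2 crossed the threshold in some, as given above, and Arid5a rests on few fragments. Over all single genes tested this way, 446 values kept direction and call, 89 missed the threshold and 3 newly passed it.

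Members called higher numbered 1 in place of 2 with TPM, quantile normalization, no mean-variance trend and the replicate block. They numbered 3 with voom for genes of at least 10 fragments, which added Arid5a, and 1 to 2 when 1 library was left out. With no filter the number stayed 2, but Zc3h12a lost its call (limma adjusted p = 0.0971) and Arid5a gained one (limma adjusted p = 0.0326). Members called lower numbered 2 in place of 3 with no filter, 4 with voom and 2 to 3 when 1 library was left out. Leaving out 1 library moved the count of all called genes from 3346 to between 2340 and 2858, of deadenylation genes from 5 to 2 to 5, of decapping genes from 2 to 1 to 3, of exosome genes from 1 to 0 to 2, of other RNA-binding genes from 7 to 4 to 7, of protein regulators from 6 to 2 to 6, and of target mRNAs from 13 to 12 to 13. Deadenylation genes called numbered 2 with no filter and 3 with the block. They also numbered 2 with a mean FPKM of at least 5, where Cnot1 and Cnot6 kept their calls and Pan2, Pan3 and Btg2 were too low to be tested. Decapping genes called numbered 1 with no filter, no trend and the block, 3 with a mean FPKM of at least 5, with TPM and with array weights, 5 with voom and 4 with voom for genes of at least 10 fragments. Exosome genes called numbered 0 with no filter, TPM, quantile normalization and no trend. Protein regulators called numbered 3 with the block.

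The Rc3h1 share of Roquin FPKM differed by 0.345 percentage points without control replicate 2, against -0.480, and by -1.29 to 0.345 over all libraries left out. The difference in Zfp36 share was 10.8 to 11.7 points. Replicate numbers did not pair the libraries: deviations of same-numbered libraries from their group means correlated at -0.020, 0.016 and -0.052 across 10540 genes. With the replicate block, 2652 genes were called, Zc3h12a had an adjusted p of 0.0740, and the block changed the call of no other member. The cause of these differences was not tested.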

Other observations

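Across all tested genes with a 3′ UTR, the number of TATTTAT heptamers was set beside the log2 fold change, as a description without a test. The median log2 fold change was 0.03 for the 6631 genes with 0 heptamers, -0.01 for the 1749 with 1, -0.03 for the 550 with 2 and -0.05 for the 314 with 3 or more. Among genes with 3 or more, 11.8% were higher and 23.9% lower in PGAM5 KD iBMDMs, against 19.2% and 14.3% of those with 0. In 3′ UTRs of 500 to 1500 bases the order was not the same. There the 43 genes with 3 or more heptamers had a median of 0.05, with 25.6% higher and 6.98% lower, against 0.02, 18.2% and 14.5% for the 2465 genes with 0. In 3′ UTRs longer than 1500 and up to 3000 bases, the 93 genes with 3 or more had a median of -0.04, with 14.0% higher and 19.4% lower, against -0.03, 11.9% and 19.9% for the 1232 with 0. Longer 3′ UTRs hold more heptamers, and length and heptamer number cannot be told apart in the first set of values.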
